A study of Mus musculus with 12 samples.

Results

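The cytosolic ribosomal protein genes encode the protein parts of the ribosome that works outside mitochondria. They were taken by symbol and biotype: protein-coding genes of GENCODE M39 whose symbol is Rpl or Rps with a number (an a, x, y or l may follow, and a further number), Rplp0 to Rplp2, and Rpsa. Kinases of the Rps6k family and pseudogenes were left out. The genes were chosen by name, with no measured value in the rule, but the family was selected on the view of earlier results in which Rpl35a and Rps27l stood out in the change with HDM in normal lung. The rule found 84 genes of 78298 gene identifiers in the table, of which 46 belong to the large subunit and 31 to the small subunit. The other 7 (Rpl3l, Rpl7l1, Rpl10l, Rpl22l1, Rpl39l, Rps27l and Rps4l) are paralogues, copies related to a core gene. The pattern of symbols misses ribosomal proteins with other names, of which Fau, Rack1 and Rpl36al are described apart. The 84 genes lie on 19 chromosomes, with 4 on X, and 30 of them hold a total of 59 small nucleolar RNA genes within their bounds.

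RNA was sequenced from 12 mouse lung libraries, 3 in each of 4 groups. The groups were dissected LLC tumours and adjacent normal lung, each after HDM (house dust mite in the series title) or VEH, which the labels do not spell out. The labels give no strain, sex, age or dose, and they do not say that libraries of a group came from separate mice, so p-values measure only the spread between these libraries. A library held 20608682 to 32765364 counts. Each library name starts with a prefix shared by 1 normal and 1 tumour library, and 2 of the 6 prefixes join libraries with different treatment labels (tumour HDM replicate 2 carries the prefix of normal VEH replicate 2, and tumour VEH replicate 3 that of normal HDM replicate 3). Labels were kept as given, and the median changes of the family that move without these 4 libraries are given beside them.

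Each ribosome carries 1 copy of nearly all of these proteins, so a cell makes them in matched amounts. Their mRNAs start with a cytosine followed by a run of pyrimidines, the 5' terminal oligopyrimidine (TOP) motif, through which the kinase mTOR and the RNA-binding protein Larp1 set their translation with growth. The genes are transcribed most in growing and dividing cells, and Myc is a known activator. Free Rpl5 and Rpl11 bind Mdm2 and thereby stabilise p53 when ribosome assembly fails.

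The motif can be read in the genome at the annotated start of transcription. RefSeq windows (GRCm38.p6) were found for 57 of the 77 genes of the subunits, and some genes have several. In 41 of the 57 genes (71.9%) an unbroken run of at least 8 pyrimidines (C or T) touched the 30 bases on either side of a start. The share was 30.8% of all 27025 genes with a window. Runs were counted over their full length, so some lie partly or mostly outside these bases. Only the transcribed strand was searched. A run of at least 5 pyrimidines beginning with a C exactly at the start was found in 13 genes (22.8%), against 3.0% of all genes. The same search found the longer run in 33.3% of 69 mitochondrial ribosomal protein genes and the run from the start in 0. The sequences below show 20 bases before the start and 20 from it, with the run from the start in capitals. The first 6 have such a run, and the last 3 do not: Rps26 and Rps2, which rose among the most in tumours, and the paralogue Rps27l.

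Rps6 (chromosome 4, minus strand): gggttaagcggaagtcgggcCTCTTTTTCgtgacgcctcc
Rps18 (chromosome 17, minus strand): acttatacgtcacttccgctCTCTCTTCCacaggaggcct
Rps15a (chromosome 7, minus strand): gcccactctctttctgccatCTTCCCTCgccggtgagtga
Rpl35 (chromosome 2, minus strand): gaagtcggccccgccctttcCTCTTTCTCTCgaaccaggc
Rpl35a (chromosome 16, plus strand): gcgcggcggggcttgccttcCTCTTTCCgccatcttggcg
Rps27 (chromosome 3, minus strand): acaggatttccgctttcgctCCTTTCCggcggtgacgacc
Rps26 (chromosome 10, minus strand): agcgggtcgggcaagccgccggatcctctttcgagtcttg
Rps2 (chromosome 17, plus strand): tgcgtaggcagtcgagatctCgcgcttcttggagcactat
Rps27l (chromosome 9, plus strand): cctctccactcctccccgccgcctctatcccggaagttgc

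In Rps26 a pyrimidine run begins a few bases past the annotated start, and in Rps2 the capital marks a lone C at the start. Annotated starts can be off by several bases, so a missing run says only that it is not at that position.

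The share of all counts that fell on these genes was about double in tumours. In normal VEH lung it was 3.60%, 4.32% and 3.55% (3.82% ± 0.433, SD, n = 3), and in normal HDM lung 3.41%, 2.72% and 2.96% (3.03% ± 0.352). In VEH tumours it was 7.5%, 8.16% and 6.57% (7.41% ± 0.802), and in HDM tumours 5.86%, 6.17% and 6.87% (6.30% ± 0.520). Every tumour library lay above every normal library, and every normal HDM library below every normal VEH library. The tumour groups overlapped between treatments. Genes of the large subunit took 1.28 to 1.44 times the counts of the small subunit in each library.

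**Figure D1:**
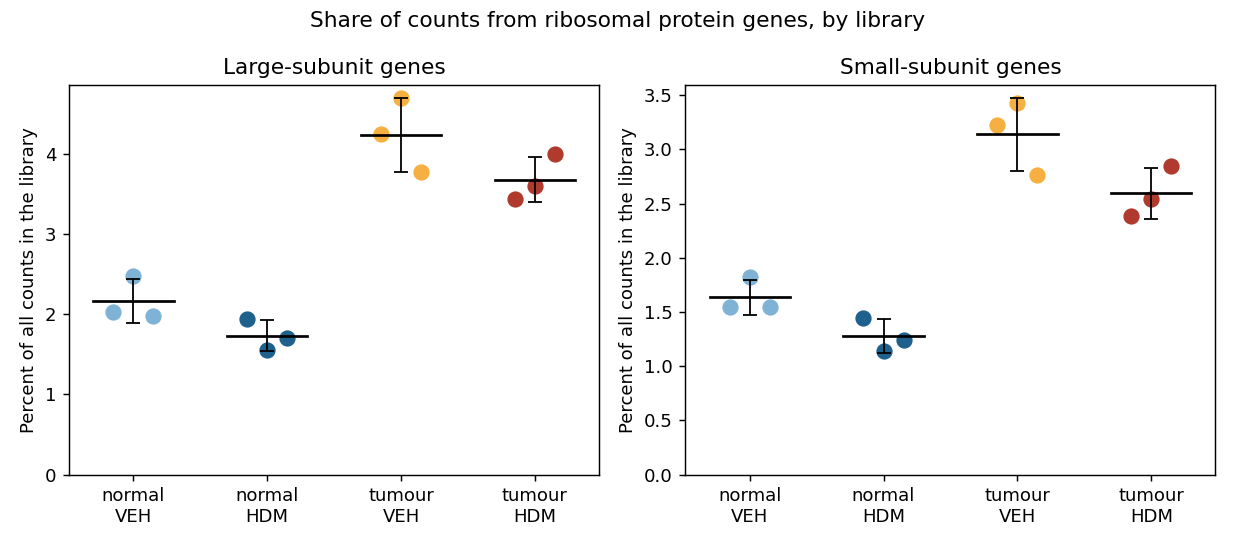
Percent of all counts in each library (points) from genes of the large subunit (left) and the small subunit (right), by group. Lines are means and bars SD of 3 libraries. All 6 tumour libraries lie above all 6 normal libraries in both panels, with large-subunit shares from 3.44% to 4.69% in tumours and from 1.55% to 2.47% in normal lung.

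Levels differed widely among the genes. Per length (counts per kilobase of the deposited gene length, scaled to the same total in each library), Rplp1, an acidic protein of the ribosomal stalk, was the highest in every group mean, with 3969 ± 743 in normal VEH lung and 9576 ± 841 in VEH tumours (SD, n = 3). The stalk base Rplp0 followed over all groups together, with 1591 ± 565 and 5537 ± 769 in the same groups. The median gene stood at 801 over the 4 groups, the 10th percentile at 137 and the 90th at 1840. This ranking and spread depend on the deposited length. For Rps24 it is 6256 bases against 1698 in the canonical transcript of GENCODE M39, and for Rplp1 499 against 547. By counts alone Rplp0 (672372 over all libraries) stood first, above Rplp1 (378849). The order of genes by this level was nearly the same in normal lung and tumours (Spearman 0.961 under VEH and 0.969 under HDM, over 84 genes that share libraries). Core genes at the bottom were Rpl24 (163 counts over all 12 libraries), Rps10 (653) and Rpl13a (9927). The lncRNA Zbtb11os1, on the strand opposite Rpl24 and overlapping its exons, held 83581 counts, so the low value of Rpl24 cannot be read as its mRNA level. How reads with several matches were counted is not given in the sources used here, so the values of Rps10 and Rpl13a are uncertain.

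Tumours were compared with normal lung under each treatment by edgeR's quasi-likelihood test over 22190 genes, with Benjamini-Hochberg adjustment and a call at an adjusted p below 0.05. The filter on low counts kept 81 of the 84 genes. Under VEH, 62 of the 81 rose in tumours, 1 fell and 18 were not called, where 18.2% of all genes rose, 20.6% fell and 38.9% were called in either direction. Under HDM, 71 rose, 1 fell and 9 were not called, where 23% of all genes rose, 28.9% fell and 51.9% were called in either direction. The median log2 change was 0.76 under VEH, against -0.11 over all tested genes, and 0.83 under HDM, against -0.08. Without the 4 libraries of conflicting prefixes the VEH median was 0.97. Libraries did not overlap, with tumours higher, for 69 genes under VEH (23.9% of all genes) and 72 under HDM (29.6%).

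Genes of both subunits rose. Of 46 large-subunit genes 37 rose under VEH and 42 under HDM, with median changes of 0.80 and 0.87. Of 31 small-subunit genes 23 and 26 rose, with medians of 0.73 and 0.72. The 62 genes that rose under VEH all rose under HDM, where 9 more were called (Rpl17, Rpl22l1, Rpl37a, Rpl38, Rpl41, Rplp2, Rps21, Rps24 and Rps29). For HDM against VEH in normal lung, the contrast behind the family's choice, these 9 had log2 changes from -0.91 to -0.47. That contrast shares its normal HDM libraries with these 9 calls, so the calls are not separate from the choice. The changes under the treatments use separate libraries, and over the 78 genes averaging a log2 CPM of 3 or more, Rps4l apart, they had a Pearson correlation of 0.799 and a Spearman correlation of 0.723, given as a description.

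**Figure D2:**
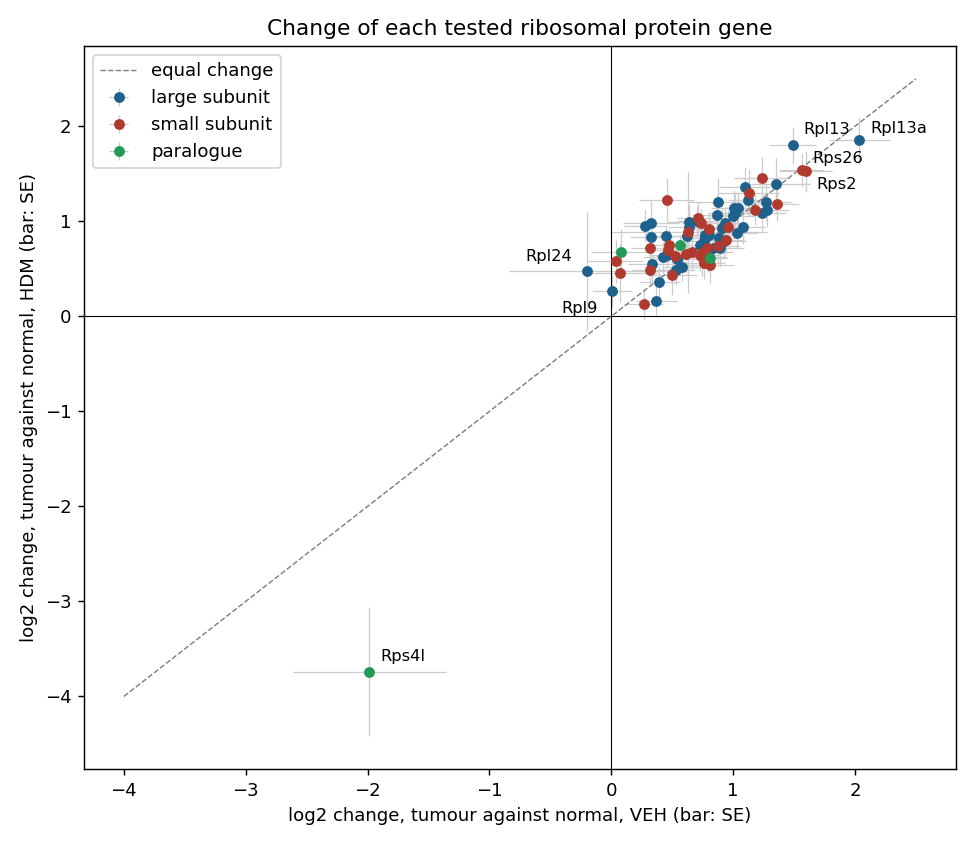
log2 change of each of 81 tested genes in tumours against normal lung under VEH (x axis) and HDM (y axis), with standard errors as bars and subunits in colour. Nearly all points lie above 0 on both axes near the line of equal change, Rpl13a, Rps2, Rps26 and Rpl13 at the top right, and Rps4l alone far below.

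The 3 largest rises were those of Rpl13a, Rps2 and Rps26 under VEH and of Rpl13a, Rpl13 and Rps26 under HDM, in both subunits. Rps26 (chr10:128460395-128462636 on GRCm39, minus strand), a small-subunit protein at the mRNA exit channel, had 223, 304 and 206 CPM (counts scaled by TMM to a common library total) in normal VEH lung and 766, 721 and 678 in VEH tumours. Under HDM it had 243, 209 and 166 in normal lung and 572, 606 and 621 in tumours. Tumour and normal libraries lay far apart under both treatments. The log2 change of Rps26 was 1.56 ± 0.18 (SE; edgeR, adjusted p = 0.000405) under VEH and 1.54 ± 0.18 (edgeR, adjusted p = 0.000171) under HDM.

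Rps2 (chr17:24937080-24940904, plus strand), a small-subunit protein at the mRNA entry channel, had 863, 1214 and 713 CPM in normal VEH lung and 2850, 3159 and 2435 in VEH tumours, a log2 change of 1.60 ± 0.22 (edgeR, adjusted p = 0.000657). With HDM the values were 869, 794 and 658 in normal lung and 1981, 2172 and 2531 in tumours, a change of 1.53 ± 0.22 (edgeR, adjusted p = 0.000371). No normal library reached a tumour library. Rpl13 (chr8:123829069-123831992, plus strand), a large-subunit protein, had 793, 1062 and 656 CPM in normal VEH lung, 2638, 2244 and 2176 in VEH tumours, 704, 576 and 612 in normal HDM lung and 2026, 2115 and 2450 in HDM tumours. Its change was 1.49 ± 0.19 under VEH (edgeR, adjusted p = 0.000547) and 1.80 ± 0.19 under HDM (edgeR, adjusted p = 0.000128).

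Rpl13a (chr7:44774982-44778263, minus strand), a large-subunit protein also known for a role in silencing inflammatory mRNAs, showed the largest rise but few counts. Its mean level per length was 41.5 against 801 for the median gene, so its values are uncertain. It had 14.6, 15.5 and 16.3 CPM in normal VEH lung, 61.2, 84.4 and 44.8 in VEH tumours, 8.48, 10.3 and 11.6 in normal HDM lung and 33.7, 29.9 and 46.2 in HDM tumours. Its log2 change was 2.04 ± 0.25 under VEH (edgeR, adjusted p = 0.000475) and 1.85 ± 0.25 under HDM (edgeR, adjusted p = 0.000283). Groups did not overlap in either comparison. The genes that stood at least 0.5 log2 units above the family median under both treatments were Rpl13, Rpl13a, Rpl32, Rps2 and Rps26, and Rpl9 and Rps4l stood as far below it.

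Of 8 landmark genes with well-known places or roles, 7 rose under both treatments, and Rps19 was not called under either. Rplp0 had 1321, 1638 and 1124 CPM in normal VEH lung and 3612, 3602 and 2647 in VEH tumours, a log2 change of 1.27 ± 0.20 (edgeR, adjusted p = 0.00133). Its HDM change was 1.2 ± 0.20 (edgeR, adjusted p = 0.000905). Rpsa, the laminin receptor precursor, had 1026, 1355 and 1007 CPM in normal VEH lung and 3121, 3114 and 2452 in VEH tumours, a change of 1.36 ± 0.18 (edgeR, adjusted p = 0.000617). Under HDM it was 1.18 ± 0.18 (edgeR, adjusted p = 0.000537). Rps6, the ribosomal protein phosphorylated by S6 kinase, rose by 1.18 ± 0.16 (edgeR, adjusted p = 0.000663) and 1.12 ± 0.16 (edgeR, adjusted p = 0.000382). Rps3, at the mRNA entry channel and also active in DNA repair, rose by 0.73 ± 0.17 (edgeR, adjusted p = 0.00737) and 0.65 ± 0.17 (edgeR, adjusted p = 0.00834).

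The Mdm2-binding pair also rose. Rpl5 had 591, 723 and 689 CPM in normal VEH lung and 1151, 1142 and 969 in VEH tumours, a change of 0.70 ± 0.16 (edgeR, adjusted p = 0.00739), and 1.00 ± 0.16 under HDM (edgeR, adjusted p = 0.000741). Rpl11 had 490, 536 and 625 CPM in normal VEH lung and 840, 895 and 667 in VEH tumours, so the groups lay close. Its changes were 0.54 ± 0.19 (edgeR, adjusted p = 0.0449) and 0.61 ± 0.19 (edgeR, adjusted p = 0.0216). The VEH call was lost without normal VEH replicate 1, 2 or 3 or tumour VEH replicate 1 or 2 (0.455 to 0.643 log2 units), and the HDM call without normal HDM replicate 2 (0.596). Without the 4 libraries of conflicting prefixes both calls were lost (0.740 and 0.653), and with a term for the prefix the HDM call was (0.503).

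A few core genes did not pass the test under either treatment: Rpl9, Rpl10, Rpl21, Rpl24, Rps9, Rps10, Rps14, Rps19 and Rps27. Rps19, the small-subunit protein most often mutated in Diamond-Blackfan anaemia, had 611, 661 and 581 CPM in normal VEH lung and 774, 803 and 656 in VEH tumours. In HDM it had 613, 469 and 427 CPM in normal lung and 499, 571 and 584 in tumours. The libraries overlapped in both comparisons, with log2 changes of 0.27 ± 0.16 (edgeR, adjusted p = 0.196) and 0.13 ± 0.16 (edgeR, adjusted p = 0.512). Rpl9, in the large subunit near the stalk base, had changes of 0.00 ± 0.17 (edgeR, adjusted p = 0.987) and 0.27 ± 0.17 (edgeR, adjusted p = 0.196). A gene that was not called may still have changed by an amount within these errors.

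The paralogues were mixed. Rps4l (chr6:148256098-148257431, plus strand), an autosomal copy of the X-linked Rps4x, was the single gene of the family that fell. It had 35.8, 17.9 and 31.3 CPM in normal VEH lung, 2.63, 12.9 and 5.91 in VEH tumours, 22.2, 29.6 and 45.2 in normal HDM lung and 4.19, 2.19 and 0.91 in HDM tumours. All tumour libraries lay below all normal libraries. Its log2 change was -1.99 ± 0.63 under VEH (edgeR, adjusted p = 0.0298) and -3.74 ± 0.68 under HDM (edgeR, adjusted p = 0.00142). The VEH call was lost without normal VEH replicate 1 or 3 or tumour VEH replicate 1 or 3 (-1.91 to -1.49), without the 4 libraries of conflicting prefixes (-2.01) and with no filter on low counts (-1.90). Per length it stood at 2.57 to 8.79 per 100 of Rps4x in normal lung and 0.0892 to 1.01 in tumours. Its partner Rps4x rose by 0.88 ± 0.18 (edgeR, adjusted p = 0.00407) and 0.74 ± 0.18 (edgeR, adjusted p = 0.00598). The copies are alike in sequence and how reads with several matches were counted is not given in the sources used here, so the value of Rps4l is uncertain.

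Rps27l, a p53 target that can replace Rps27, had 75.7, 68.9 and 78.4 CPM in normal VEH lung, 108, 117 and 105 in VEH tumours, 47.1, 51.7 and 47.1 in normal HDM lung and 81.8, 77.6 and 86.3 in HDM tumours. Its libraries lay close together within each group, and tumours were higher under both treatments. The log2 change was 0.56 ± 0.11 (edgeR, adjusted p = 0.00294) and 0.75 ± 0.11 (edgeR, adjusted p = 0.00039). Both comparisons use normal libraries in which Rps27l had stood out earlier, so these p-values are not independent of its choice. Rps27 had 275, 357 and 503 CPM in normal VEH lung and 379, 365 and 422 in VEH tumours, which overlap, with a change of 0.04 ± 0.23 (edgeR, adjusted p = 0.9). Under HDM the change was 0.58 ± 0.23 (edgeR, adjusted p = 0.0506), and it passed when normal HDM replicate 1 was left out (0.738) and when tumour HDM replicate 2 was (0.797).

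Rpl22l1, which is known to be repressed by Rpl22, had 94.2, 93.4 and 111 CPM in normal VEH lung and 97.0, 153 and 66.4 in VEH tumours. The tumours lay on both sides of the normal libraries, with a change of 0.08 ± 0.24 (edgeR, adjusted p = 0.808) that was -0.283 without tumour VEH replicate 2. Under HDM it rose by 0.67 ± 0.24 (edgeR, adjusted p = 0.0385), a call lost without normal HDM replicate 1 or 2 (0.767 and 0.580) and with a term for the prefix (0.573). Rpl22 rose by 0.53 ± 0.16 (edgeR, adjusted p = 0.0211) and 0.49 ± 0.16 (edgeR, adjusted p = 0.0221). Those calls were lost without normal VEH replicate 1 or 2 or tumour VEH replicate 2 (0.429 to 0.530), and without normal HDM replicate 1 or 2 (0.484 and 0.415). With a term for the prefix the VEH call of Rpl22 was lost (0.498). Rpl7l1 rose by 0.81 ± 0.13 (edgeR, adjusted p = 0.00153) and 0.61 ± 0.13 (edgeR, adjusted p = 0.00368), and its partner Rpl7 by 0.77 ± 0.12 (edgeR, adjusted p = 0.00142) and 0.86 ± 0.13 (edgeR, adjusted p = 0.000415). The other 3 paralogues had too few counts to be tested. Rpl10l, a gene of male germ cells, had 0 counts in all libraries. Rpl39l, a copy mainly of testis, had 26 counts over 12 libraries. Rpl3l, a gene of heart and skeletal muscle, had 49 counts, with 4 to 25 per library in normal HDM lung and 0 to 8 elsewhere. Cardiac muscle markers summed to 185 to 415 CPM in normal HDM lung, 19.0 to 262 in normal VEH lung and 0.425 to 13.6 in tumours.

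The partners of these untested copies were abundant: Rpl3 rose by 1.24 ± 0.19 (edgeR, adjusted p = 0.00121) and 1.09 ± 0.19 (edgeR, adjusted p = 0.00121). Rpl39 rose by 0.64 ± 0.18 (edgeR, adjusted p = 0.0192) and 0.99 ± 0.18 (edgeR, adjusted p = 0.00153), the VEH call being lost without normal VEH replicate 1 (0.531) or tumour VEH replicate 2 (0.5). Rpl10 did not pass, with 0.37 ± 0.17 (edgeR, adjusted p = 0.103) and 0.16 ± 0.17 (edgeR, adjusted p = 0.437).

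**Figure D3:**
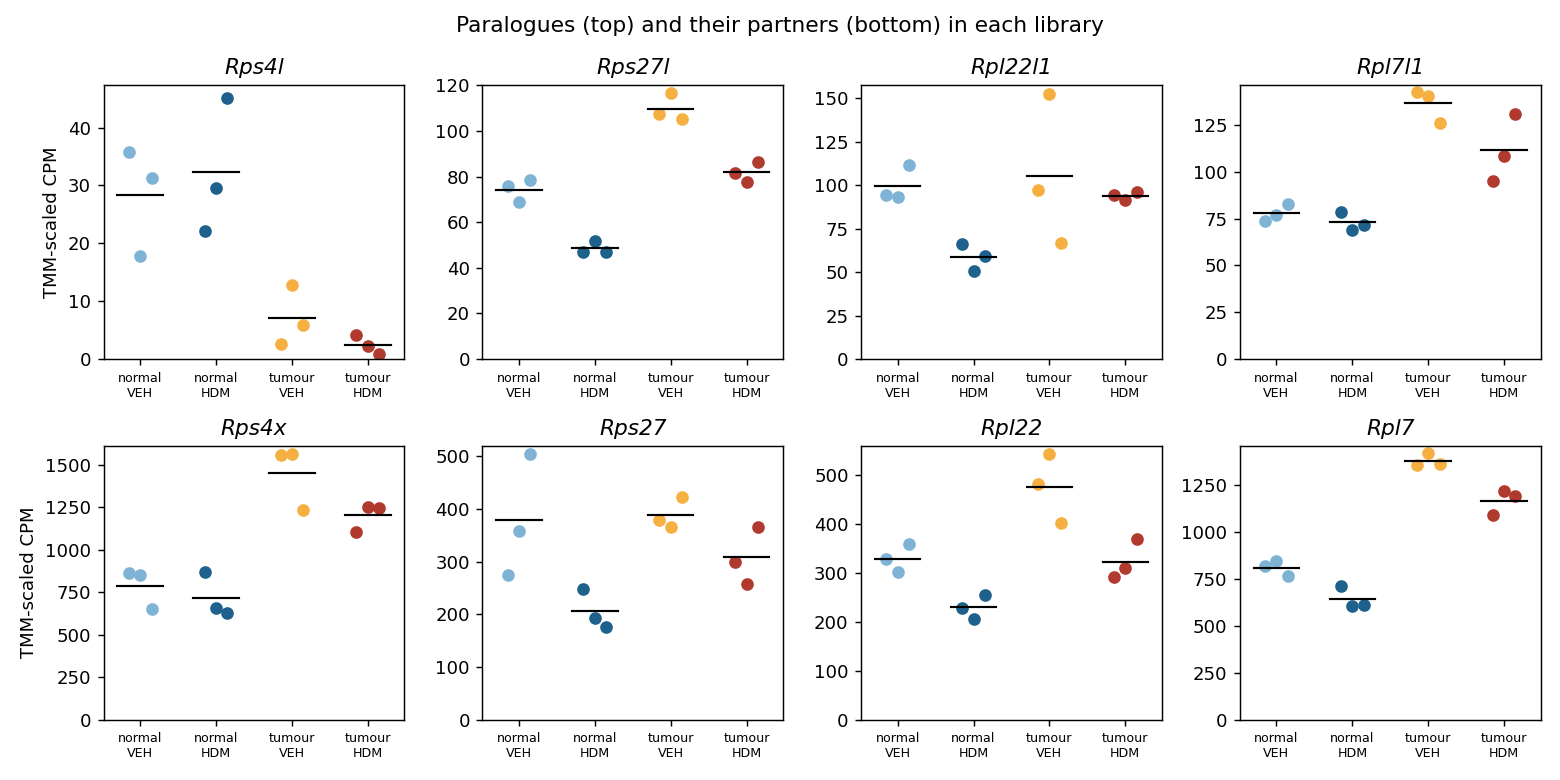
TMM-scaled CPM of 4 paralogues (top row) and their core partners (bottom row) in each library, by group, with the mean of 3 libraries as a line. Rps4l is near 0 in tumours while Rps4x is higher there, and Rps27l is higher in tumours under both treatments.

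The ribosomal proteins with other names gave a like picture for Rack1, a scaffold on the small subunit, which rose by 1.45 ± 0.25 (edgeR, adjusted p = 0.00176) and 1.23 ± 0.25 (edgeR, adjusted p = 0.00226). Of Fau, Rack1 and Rpl36al, 1 of the 3 rose under VEH and 2 under HDM, where 18.2% and 23% of all genes rose. Rpl36al had only 0.0842 to 1.32 CPM in the libraries, so its lack of a call says little. Fau, a fusion of a ubiquitin-like protein to Rps30, rose under HDM by 0.58 ± 0.21 (edgeR, adjusted p = 0.0392).

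Other genes whose mRNAs are known to carry a TOP motif, mostly translation factors, moved alongside: 13 of 15 rose under each treatment and none fell, with medians of 0.97 and 0.87. Eef1a1, the factor that brings tRNAs to the ribosome, rose by 0.96 ± 0.20 (edgeR, adjusted p = 0.00477) and 0.85 ± 0.20 (edgeR, adjusted p = 0.00572). Pabpc1, the poly(A)-binding protein, rose by 1.70 ± 0.28 (edgeR, adjusted p = 0.00157) and 2.01 ± 0.29 (edgeR, adjusted p = 0.00038). Of the mitochondrial ribosomal proteins, 25 of 78 rose and 2 fell under VEH (median 0.36), and 38 rose and 2 fell under HDM (median 0.45). Of all tested genes 18.2% rose and 20.6% fell under VEH (median -0.11), and 23% rose and 28.9% fell under HDM (median -0.08). The difference between the lists was not tested.

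Genes that act on TOP mRNAs or on growth rose in 7 of 11 cases under VEH and 8 of 11 under HDM. None fell, and the medians were 1.05 and 0.95. For each list in this paragraph, the shares of all tested genes that rose were 18.2% and 23% (medians -0.11 and -0.08). Larp1 rose by 1.08 ± 0.19 (edgeR, adjusted p = 0.00189) and 0.95 ± 0.19 (edgeR, adjusted p = 0.002), and Myc by 2.95 ± 0.94 (edgeR, adjusted p = 0.0307) and 4.23 ± 1.00 (edgeR, adjusted p = 0.00558). Myc had 6.24, 115 and 8.76 CPM in normal VEH lung, with replicate 2 far above the others, and 360, 388 and 264 in VEH tumours. Of 8 chaperones that escort single ribosomal proteins, 3 rose under VEH and 5 under HDM (medians 0.43 and 0.56), among them Grwd1, the escort of Rpl3, by 1.90 ± 0.25 (edgeR, adjusted p = 0.000617) and 2.01 ± 0.26 (edgeR, adjusted p = 0.000228). Of 6 genes of the p53 response to ribosomal stress, 3 rose under VEH and 5 under HDM (medians 1.05 and 1.22). Trp53 itself rose by 1.77 ± 0.17 (edgeR, adjusted p = 0.000304) and 2.09 ± 0.17 (edgeR, adjusted p = 7.13e-05).

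The tissues also differed in markers of cell types. Of all tested genes 18.2% rose and 20.6% fell under VEH, and 23% rose and 28.9% fell under HDM. Counts of 0 or 1 called marker in a list do not exceed these shares, and nothing is read from them. Cycling-cell markers summed to 41 to 202 CPM in normal lung and 611 to 1210 in tumours, and 8 of 8 rose under both treatments. Alveolar markers summed to 17740 to 43360 CPM in normal lung and 39 to 8778 in tumours, where 1 of 8 fell under VEH and 8 of 8 under HDM. Endothelial markers summed to 1627 to 3418 and 101 to 566 CPM, and 7 of 7 fell under both. B-cell markers fell in 4 of 5 cases under both. Macrophage markers rose in 4 of 6 cases under VEH and 3 under HDM, and T-cell markers rose in 2 of 5 under VEH while 1 fell under HDM. Cardiac markers fell in 2 of 6 tested cases under VEH and 6 under HDM, and skeletal muscle markers in 0 and 1 of 4 tested. The part of this shift in the ribosomal protein change was not tested, and in pieces of tissue fewer cells of a type and less RNA per cell cannot be told apart. Normal VEH replicate 2, with the highest ribosomal protein share of the normal libraries, also had the highest cycling sum among them (202 CPM) and the lowest endothelial sum (1627).

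By library-name prefix, the tumour library exceeded its normal partner in the summed CPM of the 84 genes in all 6 prefixes. The ratio was 1.86, 2.10, 1.77 and 1.78 in the 4 prefixes with matching treatment labels, where 76 to 79 of 81 genes were higher in the tumour. In the prefixes with conflicting labels it was 2.14, with 78 genes higher, and 1.31, with 63 genes higher, the last holding normal VEH replicate 2. Each pair sets 1 library against 1 other. The share of all tested genes that were higher is not given for these pairs, so the counts cannot be set against it.

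Overlap with genes on the other strand touched many of the values. Exons of 48 of the 84 genes overlap an exon of a gene on the opposite strand, and 36 have no such overlap. For 23 genes the opposite gene held at least 10 counts per 100 of the ribosomal protein gene, in 25 pairs. Rplp0 had 672372 counts over all libraries and the lncRNA Gm73188 on its other strand had 556098, with log2 changes of 1.27 and 1.41 in tumours under VEH. For Rps18 and Gm64720 the counts were 217744 and 241231, and the changes 1.24 and 1.27. Both changes were above 0 in 19 of the 25 pairs under VEH and 21 under HDM. The strand setting of the counting is not given in the sources used here, so reads of such pairs cannot be told apart. Among the 34 tested genes without overlap, 23 rose and 1 fell under VEH (median 0.75), and 30 rose and 1 fell under HDM (median 0.80).

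**Figure D4:**
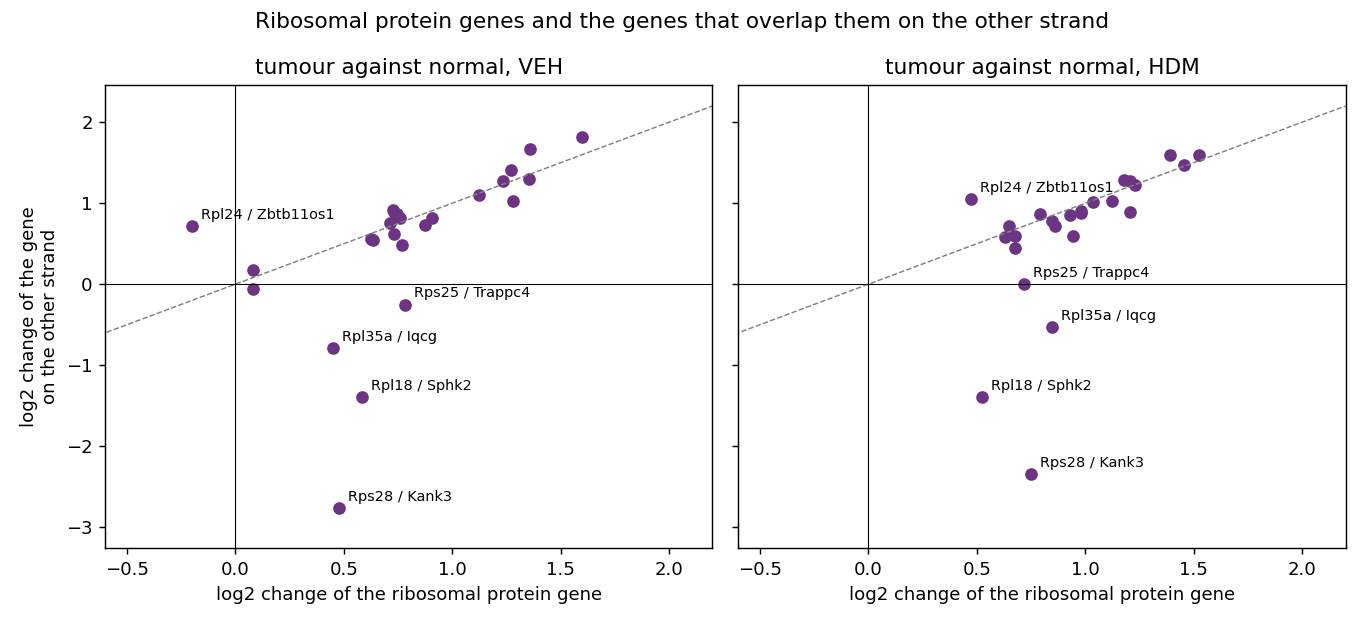
log2 change in tumours against normal lung of ribosomal protein genes (x axis) and of the gene on the other strand (y axis), for 25 pairs in which the other gene held at least 10 counts per 100, under VEH (left) and HDM (right). Most pairs lie near the dashed line of equal change. Some protein-coding neighbours, such as Kank3, Sphk2 and Iqcg, lie below 0, and others, such as Tlcd1, Ube2s and Cand2, lie above 0.

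HDM was then compared with VEH within each tissue. In normal lung, genes of the family had already been named from this contrast in earlier work on these data, so its values are a description without p-values for genes. No gene of the table was called (0% of all genes, and 0 of 81 members). Of the 81 genes 79 had a log2 change below 0, with a median of -0.43 against -0.01 over all genes, and libraries did not overlap, with HDM lower, for 46 genes (5.85% of all genes). An unadjusted edgeR p was below 0.05 for 38 of them (5.54% of all genes), for 25 without normal HDM replicate 2, and for 20 without the 4 libraries of conflicting prefixes. The share over all genes is not given for the last 2 fits. The median was -0.281 without those 4 libraries and -0.268 with a term for the prefix. The Wald test of DESeq2 called 8 (0.206% of all genes). Nothing is read from these counts.

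The lowest values in normal lung belonged to small proteins. Rpl41, the smallest protein of the ribosome, had 506, 561 and 625 CPM with VEH and 318, 263 and 321 with HDM, a log2 change of -0.91 ± 0.18. Rps27 had 275, 357 and 503 CPM with VEH and 249, 193 and 176 with HDM, a change of -0.88 ± 0.23. Neither pair of groups overlapped. At the other end stood Rps4l at 0.19 ± 0.60 and Rpl10 at -0.03 ± 0.17, both with overlapping libraries. Rpl35a, of the large subunit, had 299, 320 and 307 CPM with VEH and 219, 181 and 194 with HDM, a change of -0.64 ± 0.11.

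Across the 79 genes with an average log2 CPM of at least 3, the change in normal lung went with coding length (Pearson 0.653 with log2 length, Spearman 0.615), as a description over genes that share libraries. Genes with up to 300 coding bases had a median of -0.67, those with over 300 and up to 450 of -0.46, up to 600 of -0.43 and up to 900 of -0.30. Other protein-coding genes in the same classes had medians of -0.40, -0.30, -0.19 and -0.13, and those over 3000 bases 0.10. The same ordering by length was thus present outside the family. In tumours, other genes also ran from -0.36 in the shortest class to 0.21 in the longest, but the family lay between -0.36 and -0.32 in the 4 classes up to 900 bases (Pearson -0.124, Spearman -0.033). The part of length or RNA quality in these values was not tested.

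**Figure D5:**
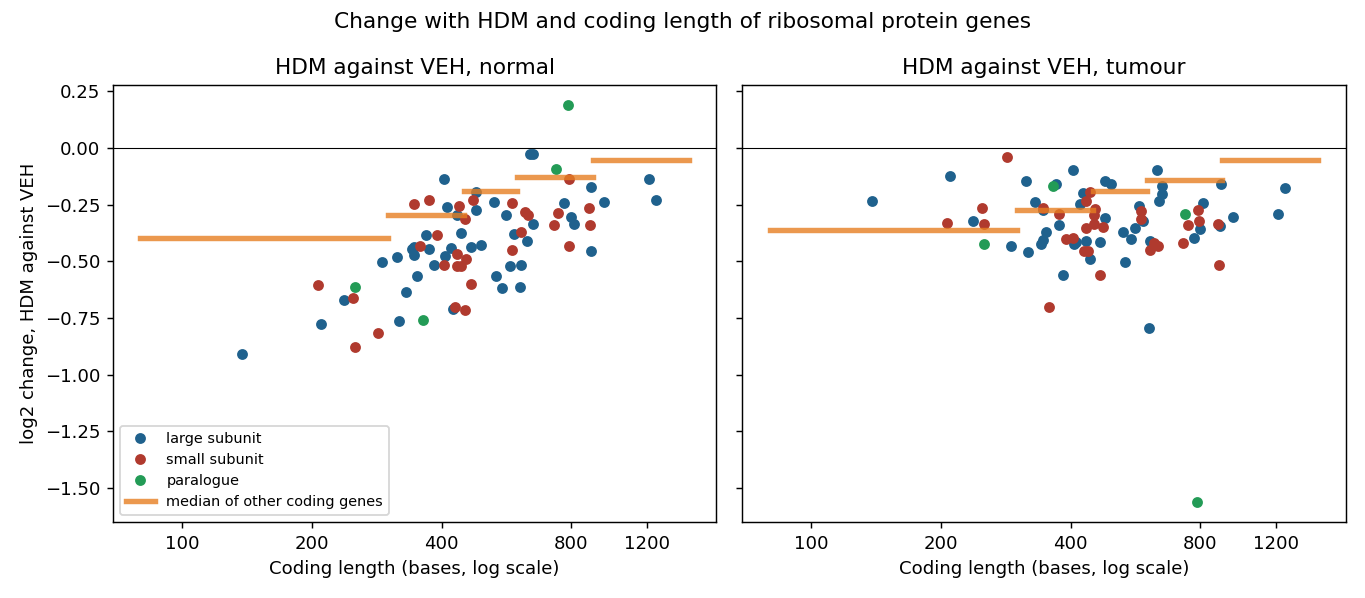
log2 change with HDM against VEH of 79 ribosomal protein genes by coding length (log scale) in normal lung (left) and tumours (right), with the median of other protein-coding genes in each length class as an orange line. In normal lung short genes lie lowest for the family and for other genes, and in tumours the family lies near -0.33 at every length apart from a few genes such as Rps4l.

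In tumours, HDM against VEH gave 0 calls in the family, where 0.0946% of all genes were called. Again 79 of 81 genes lay below 0, with a median of -0.33 against -0.04 over all genes. Libraries did not overlap, with HDM lower, for 27 genes (10.7% of all genes). An unadjusted edgeR p was below 0.05 for 27 genes (16.7% of all genes), and the Wald test of DESeq2 called 7 (6.16% of all genes). The count of 27 moved when single libraries were left out. It was 11 without tumour VEH replicate 1, 7 without tumour VEH replicate 2 and 32 without tumour VEH replicate 3. It was 5 without tumour HDM replicate 1 and 13 without tumour HDM replicate 2. The share over all genes is not given for these fits, so the counts cannot be set against it. With 1 library left out, 75 to 79 genes stayed below 0, and the median ran from -0.404 to -0.237. Both contrasts share groups with the tumour comparisons above and are not separate evidence.

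Sums of some cell-type markers also lay apart between the tumours of both treatments, although edgeR called none of the marker genes in this contrast. T-cell markers (5 genes) summed to 35.6 to 56.1 CPM in VEH tumours and 1.55 to 13.2 in HDM tumours, and endothelial markers (7 genes) to 341 to 566 and 101 to 320, with no overlap in either. Mitochondrially encoded genes took 0.896% to 1.79% of counts in VEH tumours and 0.342% to 0.627% in HDM tumours, also without overlap. Cycling-cell sums overlapped, at 814 to 923 and 611 to 1210 CPM. Tumour HDM replicate 3 stood apart, with an alveolar sum of 39 CPM and a T-cell sum of 1.55. Without it the family median was -0.378, and 19 genes had an unadjusted edgeR p below 0.05, a count given without its share over all genes. The part of these differences in the family's values was not tested.

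The lowest values were those of Rps4l, at -1.56 ± 0.63 (edgeR, adjusted p = 0.262), and Rpl13a, at -0.79 ± 0.24 (edgeR, adjusted p = 0.193). The value of Rps4l ran from -2.20 to -0.82 with 1 library left out, the latter without tumour VEH replicate 2, and was -0.64 with a term for the prefix. Rpl13a had 61.2, 84.4 and 44.8 CPM in VEH tumours and 33.7, 29.9 and 46.2 in HDM tumours, so the groups overlapped. Rps27l had 108, 117 and 105 CPM against 81.8, 77.6 and 86.3, with no overlap and a change of -0.42 ± 0.11 (edgeR, adjusted p = 0.159). The highest were Rps29, a small zinc-binding protein, at -0.04 ± 0.22 (edgeR, adjusted p = 0.953) and Rpl32 at -0.10 ± 0.27 (edgeR, adjusted p = 0.889), leaving aside Rpl24 and Rps10 with their low counts.

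Whether the tumour change differed between treatments was tested as the interaction. It contains the change in normal lung for which the family and Rpl35a were chosen, so its values are a description. It gave 0 calls in the family and 0% among all genes. The median was 0.05, and its sign turned to -0.179 without the 4 libraries of conflicting prefixes, -0.163 with a term for the prefix and -0.029 without tumour VEH replicate 3. An unadjusted edgeR p was below 0.05 for 3 genes of 81 (9.39% of all genes) and the Wald test of DESeq2 called 0 (1.02% of all genes). Nothing is read from these counts. These 3 were Rpl35a (0.40 ± 0.16), Rpl41 (0.68 ± 0.25) and Rps29 (0.78 ± 0.32), with the tumour change under HDM above that under VEH. They have 330, 138 and 285 coding bases. Over 79 genes the interaction value fell with coding length (Pearson -0.514 with log2 length, Spearman -0.539), as a description. As with the counts, nothing is read from the 3 genes, and the part of length was not tested.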

How the data were processed

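RNA counts of 12 libraries were analysed. The table the authors deposited gives unnormalised counts for each Ensembl identifier beside gene lengths. Trim Galore, STAR, Subread, featureCounts and build mm39 are named in the submitters' processing notes, while versions, annotation and settings are not given in the sources used here. Libraries were stranded (dUTP), and poly(A) selection or ribosomal RNA depletion is left undecided, per the labels' protocols. Symbols, biotypes and overlaps come from GENCODE M39 on GRCm39, which holds 78168 of the 78298 identifiers. The deposited length equals the M39 exon length for 5 of the 84 genes.

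In R 4.3.3, edgeR 4.0.16 was run on genes passing filterByExpr (minimum count 10) with TMM and a coefficient per group over all 12 libraries, using the robust quasi-likelihood F-test, two-sided. The standard error is the log2 change divided by the square root of F. The alternatives used DESeq2 1.42.0, other scalings, filters and library sets. The test was checked on simulated data with the same spread for every gene, few changed genes and no outlying libraries. That setting is simpler than these data, so the check does not cover them fully. Its pass rule was reset after a first run, and the fit was not changed. The genes and lists were chosen with earlier results of these data known, and lists were written from general knowledge; 1 listed gene is not reported here. Named genes are the 3 called with the largest rises and falls per comparison (where none was called, the 2 highest and 2 lowest, at an average log2 CPM of at least 3), the paralogues with their partners, and chosen landmark genes. Rpl35a, Rps27l (in tumours with HDM) and the 3 genes of the interaction were also named after their values were seen.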

Additional observations from a re-analysis of the deposited data

How the results depend on the processing

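Of 800 alternative values for 50 values of named genes, 736 kept their direction and side of the threshold, 37 lost a call, 7 gained one and 20 changed sign. Leaving out 1 library gave 53 to 64 calls in the family under VEH and 61 to 73 under HDM. Over all genes those fits called 5733 to 9070 under VEH and 9822 to 10695 under HDM, against 8624 and 11512 in the main fit. The median tumour change then ran from 0.643 to 0.948 and from 0.769 to 0.983. In the HDM contrasts it ran from -0.496 to -0.326 in normal lung and from -0.404 to -0.237 in tumours, and in the interaction from -0.029 to 0.166. Without the 4 libraries of conflicting prefixes the median was 0.97 for tumours under VEH, -0.281 for HDM in normal lung and -0.179 for the interaction. With a block for prefix it was -0.268 and -0.163 for the last pair. Library-size scaling gave 1.003 for tumours under HDM and moved the median of all genes there from -0.078 to 0.098. The DESeq2 Wald test called 8 genes for HDM in normal lung (0.206% of all genes) and 7 in tumours (6.16%). Causes were not tested.

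The replicate block was fitted although the numbers match the library-name prefix in only 3 of 6 prefixes (same-number correlations of deviations -0.355 to 0.279). With it, 59 genes of the family were called under VEH and 69 under HDM, where 7830 and 11001 of all 22190 tested genes were. It ended the calls of Rps4l (-2.03) and Rpl11 (0.546) under VEH and Rpl22l1 (0.672) under HDM. The block for the library-name prefix gave 58 calls in the family under each treatment, where 5783 of all genes were called under VEH and 8631 under HDM. This block ended the calls of Rpl22 (0.498) under VEH and of Rpl11 (0.503) and Rpl22l1 (0.573) under HDM.

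Signs changed for values near 0 or with wide errors. For HDM in normal lung, Rps4l was -0.374 without the 4 libraries, -0.051 without normal VEH replicate 2 and -0.137 without normal HDM replicate 3, and at most 0.401 with 1 library left out. Rpl10 there was 0.021 by library size, 0.084 with the prefix block, 0.113 without the 4 libraries, and 0.059, 0.012, 0.003 and 0.063 in 4 fits with 1 library left out, the lowest such fit giving -0.161. For HDM in tumours, Rps29 was 0.052 by library size, 0.264 without the 4 libraries, and 0.066 and 0.16 with 1 library left out (lowest -0.199), and Rpl32 was 0.07 and 0.005 (lowest -0.222). In tumours against normal under VEH, Rpl22l1 was -0.283 without tumour VEH replicate 2 and 0.417 without tumour VEH replicate 3, and Rps27 was -0.044 with at least 10 counts in every library and -0.145 without normal VEH replicate 1, and 0.3 without normal VEH replicate 3. Under HDM, Rps19 was -0.014 with that filter. Depth limits Rpl24, Rps10, Rpl36al and the 3 untested paralogues.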
